A study of Mus musculus with 33 samples.

Results

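Of the 33012 gene probes on the array, 36 were detected on all 30 arrays of RAW264.7 cells given lipopolysaccharide (LPS) and on none of the 3 arrays of cells given vehicle. The detection limit was a signal over noise of 3, and a probe also needed a quality flag of at most 5000 on all 33 arrays and an identifier that does not start with NM_. The probes were chosen by these values, so the difference between LPS and vehicle is given below as a description, with no test. The 36 probes carry 36 different Gene_IDs, of which 35 are Celera gene identifiers (mCG) and 1 is a cDNA accession, AK042117.1. None of the 36 could be paired with a gene symbol, so each is given by its probe number and Gene_ID and no gene role is stated for it.

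RAW264.7 is a mouse macrophage-like cell line. For 6 h its cultures received 1 µg/ml of LPS together with 1, 10 or 100 µg/ml of a compound (albiflorin, paeoniflorin or paeonol), the same LPS alone, or vehicle, which was 0.1% DMSO. Each of the 11 groups had 3 biological replicates, measured on 1 one-colour array each. Because RNA was taken from whole cultures, a lower signal in every cell and a smaller share of responding cells cannot be told apart.

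LPS is a component of the outer membrane of Gram-negative bacteria that macrophages sense through Toll-like receptor 4. The receptor activates NF-kappaB and interferon regulatory factors, and genes that are close to silent in resting macrophages are then transcribed, some directly and some only after newly made cytokines such as interferon beta act back on the cell. Albiflorin and paeoniflorin are isomeric monoterpene glycosides of peony root, and paeonol is a small phenolic ketone from the same source.

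Arrays had median signals of 335.9 to 1439.7 before normalization and detected between 38.2% and 49.7% of all gene probes. Arrays with the same replicate number were scanned on the same day, and the 3 days are called scan days 1 to 3 after those numbers. Over the 9385 probes detected on all 33 arrays, 26 of the 30 LPS-treated arrays were most like the arrays of their own scan day. The 4 exceptions were albiflorin 1 replicate 1, which was most like day 2, and paeoniflorin 100 replicate 2, paeonol 1 replicate 2 and paeonol 100 replicate 2, which were most like day 1. For paeonol 100 replicate 2 the likeness was slight, with median correlations of 0.067 with day 1 and 0.002 with day 2. Its nearest single array was paeoniflorin 10 replicate 2, of day 2. Paeoniflorin 10 replicate 1 stood apart, with the lowest detection and a median correlation of 0.908 with the other arrays. The 28 manufacturing test control spots separated the arrays into a set of 10 and a set of 23. The set of 10 held replicates 2 and 3 of LPS alone and of vehicle, while all 9 paeonol arrays and LPS replicate 1 were in the set of 23. Of 10 listed macrophage genes 1 (Cebpb) had a named probe, and of 3 listed genes each for fibroblasts, T cells and B cells none had, so the cell type could not be checked through names. Among 14 listed LPS response genes Nlrp3 and Cebpb were named, and neither is among the 36.

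With LPS alone, the 36 probes ranged from a weak to a very strong signal. Their mean log2 signal lay 1.32 to 8.13 above vehicle, with a median of 4.61. The fold over vehicle is a ratio to signals below the detection limit, so it is imprecise and not a bound. This fold ran from 2.50 to 281, with a median of 24.4. It was 100-fold or more for 6 probes, between 10-fold and 100-fold for 24, between 4-fold and 10-fold for 2 and under 4-fold for 4. For 33 of the 36 the lowest of the 30 LPS-treated arrays exceeded the highest vehicle array. The rule used these same arrays, so nothing is read from that count or from the 4.46% of all tested probes with the same order.

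**Figure D1:**
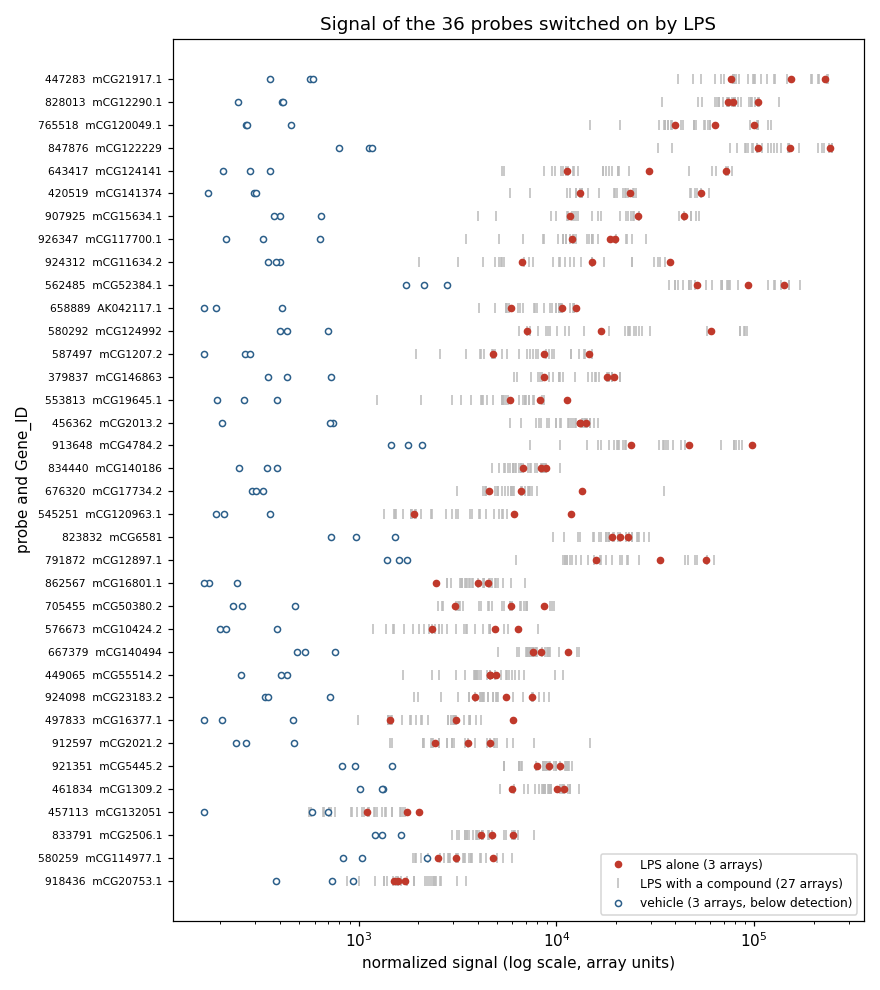
Normalized signal of the 36 probes on a log axis, 1 row per probe in order of the log2 difference between LPS and vehicle. Filled points are the 3 arrays of LPS alone, ticks the 27 arrays of LPS with a compound, and open points the 3 vehicle arrays, where the probes were not detected. For 33 probes the open points lie left of every other mark, and the vehicle range meets the LPS-treated range for 457113, 580259 and 918436.

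The probe with the largest difference was 447283 (mCG21917.1). Its normalized signal was 76061, 228676 and 152849 with LPS alone, against 570.4, 587.0 and 357.8 with vehicle, a ratio of 281. Probe 828013 (mCG12290.1) had 78090, 73914 and 104843 with LPS alone, against 245.1, 410.7 and 412.7 with vehicle, a ratio of 244. The LPS arrays of 828013 lay close together, whereas those of 447283 spread about its group mean with an SD of 0.80 on the log2 scale. Probe 765518 (mCG120049.1) had 39915, 99576 and 63530 with LPS alone, against 270.3, 456.3 and 272.2 with vehicle. Probe 847876 (mCG122229) reached 104670, 240502 and 151548 with LPS alone, against 1128, 1166 and 799.7 with vehicle. It had the highest mean log2 signal of the 36 over the 30 LPS-treated arrays, 16.92, followed by 447283 with 16.69 and 828013 with 16.25.

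The next largest differences from vehicle were 6.71 for 643417 (mCG124141), 6.68 for 420519 (mCG141374), 5.69 for 907925 (mCG15634.1), 5.54 for 926347 (mCG117700.1), 5.37 for 924312 (mCG11634.2) and 5.33 for 562485 (mCG52384.1), all on the log2 scale. Probe 562485 had the highest vehicle signal of the 36, 2805, 2148 and 1732, and was still below the detection limit there. At the other end, 918436 (mCG20753.1) had 1710, 1517 and 1590 with LPS alone, against 731.4, 938.7 and 383.7 with vehicle, a log2 difference of 1.32. Its LPS and vehicle arrays did not overlap, although arrays of other LPS-treated groups came down to 875.8. Probe 580259 (mCG114977.1) differed by 1.42, 833791 (mCG2506.1) by 1.83 and 457113 (mCG132051) by 1.96.

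With LPS most of the 36 probes lay in the middle of the range of signals of the tested probes. With LPS alone the median of their levels stood at the 59.3rd percentile of the 19438 tested probes, and with vehicle at the 11.8th. Gene probes detected on fewer than 3 arrays were left out of this ranking, so these are not percentiles of the whole array. Of the 36, 8 reached the 75th percentile with LPS and 2 the 90th, and these were 847876 and 447283. By mean log2 signal over the 30 LPS-treated arrays the next were 562485 (16.15), 765518 (15.66), 913648 (mCG4784.2, 14.95), 580292 (mCG124992, 14.37), 420519 (14.36), 791872 (mCG12897.1, 14.32) and 643417 (14.25). Signals of different probes depend on the probe sequence too, so this order describes signals and not transcript numbers.

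Some probes lay close to the limits of the rule. Just inside on the vehicle side, the highest signal over noise on a vehicle array was 2.93 for 456362 (mCG2013.2), 2.91 for 580259 and 2.86 for 834440 (mCG140186). Just inside on the LPS side, the lowest value on an LPS-treated array was 3.03 for 457113, 3.10 for 449065 (mCG55514.2) and 3.17 for 918436. Probe 802003 (mCG9012.2) missed the rule with 3.07 on a vehicle array, 880858 (mCG6119.1) with 3.11 and 896130 (mCG1042580.1) with 3.21. Probe 747099 (mCG3120.3) missed it with 2.89 on an LPS-treated array, 835665 (mCG14252.1) with 2.78 and 435867 (AK052243.1) with 2.74. The rule asks for detection on the 27 compound arrays as well. On the vehicle and LPS arrays alone 144 probes met it, of which 22 were then detected on 25 or 26 of the 27 compound arrays and 17 on at most 9. A probe that a compound took below detection is therefore not among the 36.

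The 36 probes had a wide spread between arrays of a group. Their median SD over the 3 LPS arrays was 0.59 on the log2 scale, against 0.193 for the 9385 probes detected on all arrays. Over the 30 LPS-treated arrays the SD ran from 0.28 for 834440 to 1.26 for 580292. Probe 580292 shows the widest spread, with 7121, 60179 and 16819 with LPS alone, against 435.7, 703.5 and 398.9 with vehicle. The steadiest within LPS alone was 456362, with 13208, 13214 and 14148, against 740.3, 203.0 and 715.6 with vehicle.

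Part of this spread was shared among the probes. For each array, the deviation of each probe from its own mean over the 30 LPS-treated arrays was taken, and the median over the 36 probes is given here on the log2 scale. It was -0.30, 0.62 and 0.33 for LPS replicates 1, 2 and 3. For paeonol 100 it was -0.88, -0.95 and -0.35, so that paeonol 100 replicate 3 stood close to LPS replicate 1. Most arrays of scan day 2 were high and most of day 1 were low. Albiflorin 1 replicate 1, the day 1 array that was most like day 2, had 0.77, the highest of the 30, and paeoniflorin 100 replicate 2 and paeonol 1 replicate 2, the day 2 arrays most like day 1, had -0.32 and -0.56. The same median over the 9385 probes detected on all arrays was -0.03 for LPS replicate 2 and 0.01 for paeonol 100 replicate 2. Quantile normalization gives all arrays the same distribution of signals and so holds a median over this many probes near 0. The part of the scan day in the differences below was not tested apart from the block and the within-day values given with them.

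**Figure D2:**
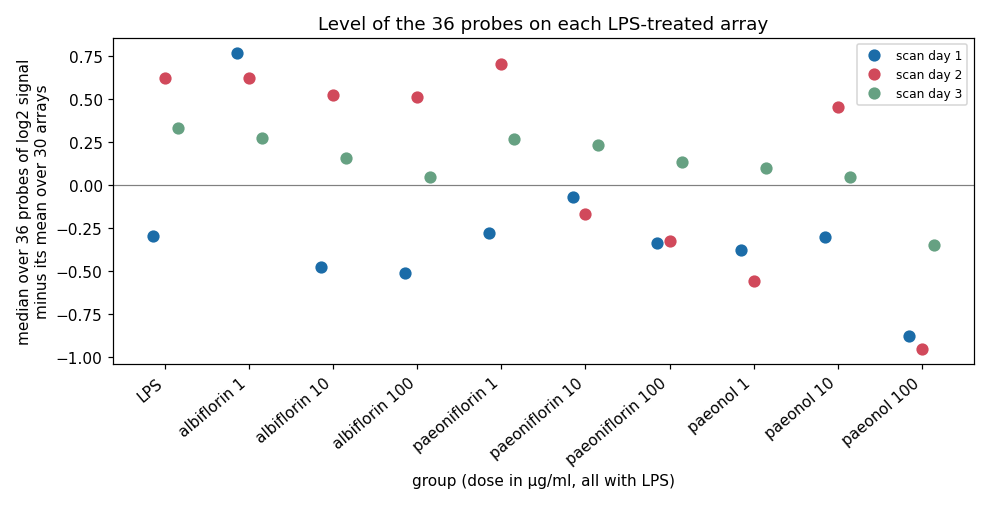
Median over the 36 probes of the log2 signal minus each probe's mean over the 30 LPS-treated arrays, 1 point per array, by group (doses in µg/ml) and coloured by scan day. The 3 LPS arrays run from -0.30 to 0.62, and the paeonol 100 arrays, at -0.88, -0.95 and -0.35, all lie below them.

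Of the 9 compound groups, paeonol at 100 µg/ml had the largest median difference from LPS alone. Of the 36 probes 33 had a lower mean than with LPS alone, where 45.7% of all tested probes did, and the median log2 difference was -0.88, against 0.03 over all 19438 tested probes and 0.02 over the 9385 probes detected on all arrays. The medians over the larger sets are held near 0 by the quantile normalization. The group mean of paeonol 100 was the lowest of the 10 LPS-treated groups for 26 of the 36 probes. The share of all tested probes in that order is not given here. The mean was at least 2-fold lower for 17 of the 36 probes, against 2.13% of all tested probes. For 17 of the 36 all 3 paeonol 100 arrays lay below all 3 LPS arrays, against 6.24% of all tested probes, and for 0 they lay above, against 8.97%. Limma called 1 of the 36, as lower, where it called 0.108% of all tested probes lower and 0.144% in either direction, and 19 of the 36 had an unadjusted p under 0.05, against 7.61%. With the replicate number, which marks the scan day, as a block, 4 of the 36 were called, where 0.484% of all tested probes were. The same-numbered pairs of this comparison did not all deviate together, since the lowest of their 3 correlations was -0.0015. Paeonol 100 replicate 2 was clearly like neither day 1 nor its own day 2, with median correlations of 0.067 and 0.002. The 95% interval of the difference stayed within 2-fold either way for 7 of the 36.

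**Figure D3:**
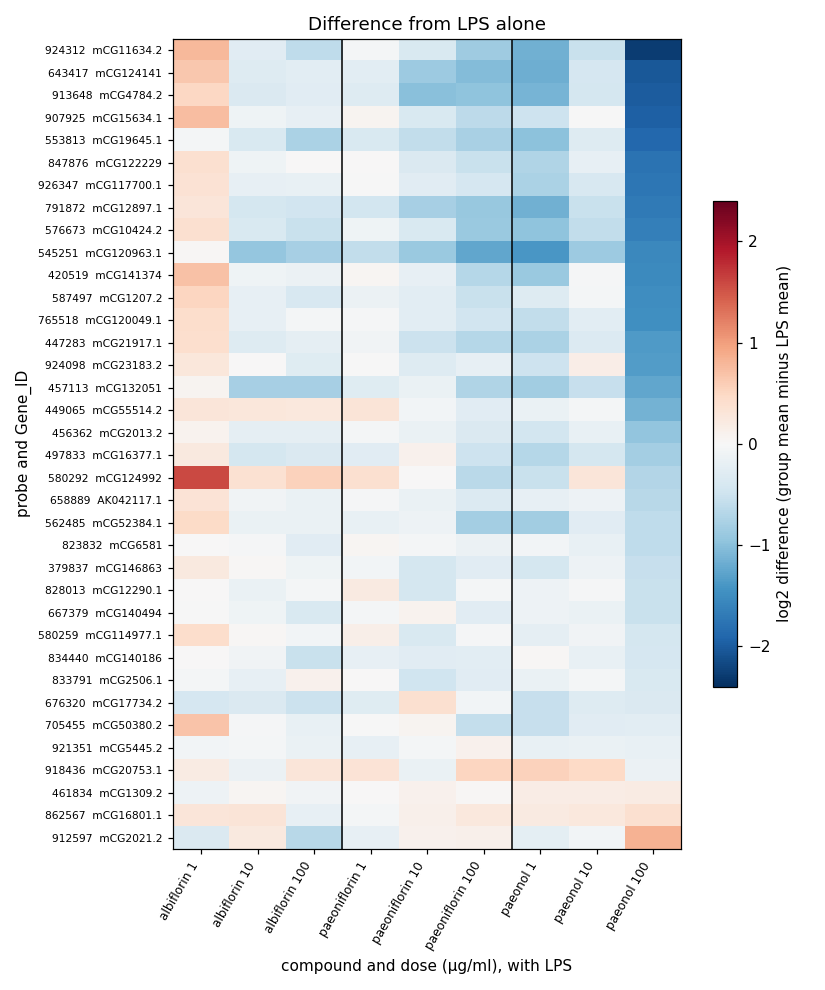
Log2 difference of each compound group from LPS alone (group mean minus LPS mean) for the 36 probes in rows, ordered by the difference with paeonol 100. Columns are the 3 doses of each compound in µg/ml. The paeonol 100 column holds the strongest blue, down to -2.27, and 3 of its cells are above 0.

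Probe 553813 (mCG19645.1) was the one that passed. Its signal was 2074, 1232 and 4151 with paeonol 100 and LPS, against 5852, 8218 and 11298 with LPS alone, and 192.3, 263.5 and 389.1 with vehicle. Every paeonol 100 array lay below every LPS array. It fell by 1.89 ± 0.367 (SE, n = 3 per group) on the log2 scale, 3.71-fold, with a limma adjusted p of 0.0276. The difference was -1.50, -2.74 and -1.44 on scan days 1, 2 and 3. The call was lost without LPS replicate 2 (limma adjusted p = 0.145), LPS replicate 3 (0.274), paeonol 100 replicate 1 (0.156) or paeonol 100 replicate 2 (0.255). It was also lost with median scaling (limma adjusted p = 0.165), the authors' log2 table (0.0869), no detection filter (0.0521), the control spot set as a block (0.0926) or only the compared groups in the fit (0.496), and without replicate 1, 2 or 3 of every group (0.291, 0.694 and 0.0896).

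A further 3 probes passed with the replicate block and not without it, so their calls rest on a pairing that the correlations of this comparison do not bear out. Probe 847876, the brightest of the 36, had 32807, 38417 and 75830 with paeonol 100, against 104670, 240502 and 151548 with LPS alone. The difference was -1.77 ± 0.395, with a limma adjusted p of 0.0811, and of 0.0126 with the replicate block. Probe 926347 had 5104, 3492 and 6761.5 with paeonol 100, against 12063.5, 19815 and 18580 with LPS alone. Its groups did not overlap, and the difference was -1.73 ± 0.372 (limma adjusted p = 0.0614, and 0.0233 with the replicate block). Probe 576673 (mCG10424.2) had 1499, 1187 and 1374 with paeonol 100, against 2358.5, 6416 and 4867 with LPS alone, a difference of -1.64 ± 0.423 (limma adjusted p = 0.169, and 0.0287 with the replicate block). The paeonol 100 arrays of 576673 lay closer together than its LPS arrays, with an SD of 0.17 against 0.75 on the log2 scale.

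Larger differences in the mean did not pass where the LPS arrays spread widely. Probe 924312 had the lowest difference of the 36, -2.27 ± 0.708 (limma adjusted p = 0.301), from 3179, 2017 and 5223.5 with paeonol 100 and 6684, 37425 and 15104 with LPS alone. Probe 643417 had -2.03 ± 0.803 (limma adjusted p = 0.495), from 5294, 5425 and 12234 with paeonol 100 and 11283, 72403 and 29253 with LPS alone. For 643417 the highest paeonol 100 array exceeded the lowest LPS array. Probe 913648 had -1.999 ± 0.640 (limma adjusted p = 0.321). Probe 924098 (mCG23183.2) had a smaller but steadier difference of -1.35 ± 0.349 (limma adjusted p = 0.169), with 1994, 1898 and 2616 for paeonol 100 and 3885.5, 7546 and 5538 for LPS alone, and its groups did not overlap.

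**Figure D4:**
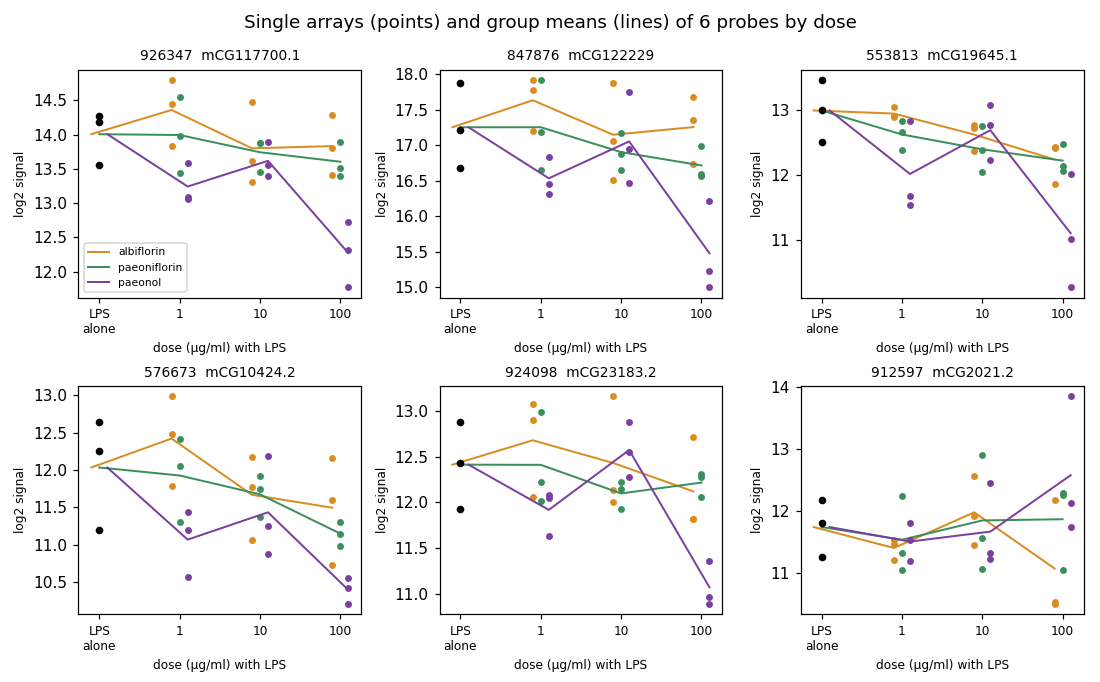
Log2 signal of 6 probes with LPS alone and with LPS and 1, 10 or 100 µg/ml of each compound. Points are single arrays, and lines join the group means of a compound from LPS alone upwards. For 553813 the 3 paeonol 100 arrays lie below the 3 arrays of LPS alone, and for 912597 a single paeonol 100 array lies far above the rest.

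The 3 probes above LPS alone with paeonol 100 did not pass either. Probe 912597 (mCG2021.2) had 14839, 4482 and 3436 with paeonol 100, against 4609, 2427 and 3561 with LPS alone, a difference of 0.84 ± 0.550 (limma adjusted p = 0.805). Its first array lay above the other 5, which overlapped between the groups. Probe 862567 (mCG16801.1) had 0.38 ± 0.280 and 461834 (mCG1309.2) had 0.20 ± 0.271, with overlapping arrays in both. The paeonol 100 means of the 36 probes stood 1.64-fold to 168-fold above the undetected vehicle signals, with a median of 13.3-fold. The rule kept only probes that were detected on every paeonol 100 array.

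The direction held on each scan day, and its size varied. The median over the 36 probes of the paeonol 100 array minus the same day's LPS array was -0.58, -1.50 and -0.71 on days 1, 2 and 3, with 27, 32 and 32 of the 36 below 0. The paeonol 100 array of day 2 is the one that was clearly like neither day 1 nor day 2. Without replicate 2 of every group the median difference was -0.73, and 553813 was no longer called. The set that the control spots define moved with the comparison, since all 3 paeonol 100 arrays and 1 of 3 LPS arrays lay in the set of 23. Against that 1 LPS array the median difference was -0.45, with 28 of 36 below 0, and against the other two LPS arrays it was -1.25, with 33 of 36 below 0. With the set as a block the median was -0.82, and 553813 was again not called. For single days and sets no share of all tested probes below 0 is given, so these counts are a description.

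The lower doses of paeonol gave smaller differences that did not follow the dose. At 1 µg/ml the median was -0.52, with 32 of the 36 below LPS alone where 47.8% of all tested probes were, and at 10 µg/ml it was -0.17, with 31 of 36 below, against 51.3%. The paeonol 10 mean lay above the paeonol 1 mean for 31 probes and the paeonol 100 mean below the paeonol 10 mean for 32. Shares of all tested probes in these orders are not given here. Limma called 0 of the 36 at either dose, as it called 0% of all tested probes, while 4 of the 36 at 1 µg/ml and 0 at 10 µg/ml reached an unadjusted p under 0.05, against 6.65% and 3% of all tested probes. The smallest p at 1 µg/ml was that of 553813, which had 3281, 2975 and 7266 with paeonol 1, a difference from LPS alone of -0.98 ± 0.367 (limma adjusted p = 0.745). At 10 µg/ml it was that of 545251 (mCG120963.1), with -0.87 ± 0.535 (limma adjusted p = 1). The paeonol 1 difference differed between days, with medians of -0.03, -1.36 and -0.30, and the median was -0.29 without paeonol 1 replicate 2 and -0.27 without LPS replicate 2. The paeonol 10 median became 0.04 without LPS replicate 2 and 0.02 without paeonol 10 replicate 1. The slope of the paeonol group means on log10 dose was below 0 for 30 of the 36, against 48.7% of all tested probes. With evenly spaced log10 doses the slope of each compound is set by the means at 1 and 100 µg/ml. The mean at 10 µg/ml has no weight in it. For this slope limma called 0 of the 36, against 0.0206% of all tested probes, with 7 at an unadjusted p under 0.05, against 6.8%. Probe 449065 had the smallest p, with a slope of -0.48 ± 0.169 log2 per 10-fold dose (limma adjusted p = 0.540), from 3949, 4639 and 4076 at 1 µg/ml, 3105, 5531 and 5642 at 10 µg/ml and 1683, 2363 and 2549 at 100 µg/ml.

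The albiflorin differences from LPS alone were small in the median at all 3 doses. Albiflorin 1 was the highest of the 10 groups for 23 probes, a count with no share of all tested probes beside it. Its median difference from LPS alone was 0.29, with 7 of 36 below, against 52.7% of all tested probes. That value was 1.20 on day 1, 0.04 on day 2 and -0.12 on day 3, and it was 0.14 without albiflorin 1 replicate 1, the array most like another day, and -0.01 without LPS replicate 1. Probe 580292 had the largest difference, 1.59 ± 0.966, from 88931, 84547 and 26280 with albiflorin 1 and 7121, 60179 and 16819 with LPS alone, and was not called (limma adjusted p = 1.00). At 10 µg/ml the median was -0.15, with 28 of 36 below, against 54.1% of all tested probes. It became 0.05 without LPS replicate 2 and 0.10 without albiflorin 10 replicate 1, and the smallest p was that of 457113, with -0.80 ± 0.397. At 100 µg/ml the median was -0.21, with 31 of 36 below LPS alone, against 54.8% of all tested probes, and 4 of 36 with no overlap below, against 3.69%. That median became 0.01 without albiflorin 100 replicate 1. At each dose limma called 0 of the 36 and 0% of all tested probes, while 0, 0 and 2 of the 36 reached an unadjusted p under 0.05 at the 3 doses, against 1.23%, 2.07% and 1.86% of all tested probes.

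At albiflorin 100 the 3 lowest differences were -0.80 ± 0.535 for 545251, -0.79 ± 0.397 for 457113 and -0.76 ± 0.367 for 553813. The 3 highest were 0.56 ± 0.966 for 580292, 0.30 ± 0.377 for 918436 and 0.26 ± 0.338 for 449065. Probe 553813 had 3721, 5544 and 5460 with albiflorin 100, all below its 3 LPS arrays. The albiflorin slope on dose was below 0 for 33 of 36 probes, against 52.6% of all tested probes, with 0 of the 36 and 0% of all tested probes called and 3 of the 36 at an unadjusted p under 0.05, against 3.29%. The smallest p was that of 834440, with -0.28 ± 0.112 log2 per 10-fold dose (limma adjusted p = 1.00). It had 8383, 7965 and 7778 at 1 µg/ml, 6587, 8817 and 7320 at 10 µg/ml and 4720, 6817 and 5120 at 100 µg/ml. Over the 36 probes the median deviation was 0.77, 0.62 and 0.28 for albiflorin 1 replicates 1, 2 and 3. For albiflorin 100 it was -0.51, 0.51 and 0.05. These groups lay furthest apart on day 1, which holds the albiflorin 1 array that was most like day 2.

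Paeoniflorin gave median differences of -0.04, -0.26 and -0.43 from LPS alone at 1, 10 and 100 µg/ml. The first became 0.16 without LPS replicate 2 or without paeoniflorin 1 replicate 1. The second was -0.22 without replicate 1 of paeoniflorin 10, the array that stood apart, and -0.05 without LPS replicate 2. At 100 µg/ml 31 of 36 were below LPS alone, against 45.8% of all tested probes, and 3 of 36 had no overlap below, against 4.01%. None of the 36 was called by limma at any dose, as it called 0% of all tested probes, while 0, 0 and 3 reached an unadjusted p under 0.05, against 1.26%, 7.73% and 1.76% of all tested probes. At 1 and 10 µg/ml 25 and 28 of the 36 were below LPS alone, against 49.7% and 52.2%. The 3 lowest at 100 µg/ml were 545251, with -1.24 ± 0.535, 643417, with -1.04 ± 0.803, and 913648, with -0.96 ± 0.640, and the 3 highest were 918436, with 0.51 ± 0.377, 862567, with 0.25 ± 0.280, and 912597, with 0.13 ± 0.550. Probe 545251 also had the smallest p at 1 µg/ml (-0.59 ± 0.535) and at 10 µg/ml (-0.89 ± 0.535). Its signal was 1854, 1548 and 3641 with paeoniflorin 100, against 1916, 6094.5 and 11864 with LPS alone, so the groups overlapped. The paeoniflorin 100 median was -0.005 on day 1, -0.93 on day 2 and -0.27 on day 3, and -0.33 without its replicate 2, the array most like another day, and -0.22 without LPS replicate 2. Its slope was below 0 for 30 of 36 probes, against 47% of all tested probes, with 0 of the 36 and 0% of all tested probes called and 0 of the 36 at an unadjusted p under 0.05, against 1.42%, and the smallest p was that of 576673 (-0.39 ± 0.211). All 9 comparisons with LPS alone share its 3 arrays, so their medians are not independent of each other.

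The compounds were also compared with each other at the 3 matched doses, in 9 contrasts whose mean differences do not use the arrays of LPS alone. Those arrays still enter the shared estimate of the spread, and so the SE and p. Paeonol, a phenolic ketone, had lower means than albiflorin, a glycoside, at 100 µg/ml for 31 of 36 probes, against 44.5% of all tested probes, with a median of -0.62. For 7 of the 36 all paeonol 100 arrays lay below all albiflorin 100 arrays, against 5.12% of all tested probes, and 16 of the 36 were at least 2-fold lower, against 2.5%. Limma called 0 of the 36, against 0.0309% of all tested probes, and 16 had an unadjusted p under 0.05, against 9.35%. Probe 847876 came closest. It had 32807, 38417 and 75830 with paeonol 100, against 108938, 210006 and 167611 with albiflorin 100, with no overlap, and a difference of -1.78 ± 0.395 (limma adjusted p = 0.175, and 0.0370 with the replicate block, where it was the 1 of the 36 called, against 0.232% of all tested probes). The lowest of the 3 correlations between same-numbered arrays of these groups was 0.157. The median was -0.36, -1.26 and -0.40 on days 1, 2 and 3, and -0.71 against the 2 albiflorin 100 arrays of the same control spot set, with 31 of 36 below 0. Probe 912597 went the other way by 1.51 ± 0.550 (limma adjusted p = 0.405), with 4604, 1446 and 1480 on its albiflorin 100 arrays.

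Paeonol had lower means than paeoniflorin at 100 µg/ml for 31 of 36 probes, against 48.5% of all tested probes, with a median of -0.51. All 6 of these arrays are in the same control spot set, and the median was -0.53, -0.61 and -0.46 on the 3 days. For 14 of the 36 the paeonol arrays all lay below the paeoniflorin arrays, against 6.75% of all tested probes, and 8 of the 36 were at least 2-fold lower, against 1.69%. Limma called 0 of the 36, against 0.0154% of all tested probes, and 6 had an unadjusted p under 0.05, against 4.14%. The smallest p was that of 926347, with 5104, 3492 and 6761.5 for paeonol 100 and 11705, 10822 and 15197 for paeoniflorin 100, a difference of -1.33 ± 0.372 (95% interval -2.10 to -0.56, limma adjusted p = 0.618). No paeonol array of 926347 reached a paeoniflorin array.

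At the lower doses paeonol had lower means than albiflorin at 1 µg/ml for 32 of 36 probes, against 46.9% of all tested probes, with a median of -0.87 and 16 at an unadjusted p under 0.05, against 11.3% of all tested probes. There limma called 0 of the 36, against 0.0103% of all tested probes. The albiflorin 1 and paeonol 1 groups each hold an array most like another day, and the median was -0.78 without that albiflorin array and -0.57 without that paeonol array. At 10 µg/ml the median was -0.07 against albiflorin and 0.09 against paeoniflorin, and at 1 µg/ml -0.49 against paeoniflorin. In these 3 contrasts limma called 0 of the 36 and 0% of all tested probes, and 0 of the 36 had an unadjusted p under 0.05, against 3.26%, 7.42% and 5% of all tested probes. The paeonol mean was below in 22, 13 and 31 of the 36, against 47.5%, 49.3% and 48.5%. Without the array that stood apart the median against paeoniflorin at 10 µg/ml was 0.02, and without paeonol 10 replicate 2 it was -0.16. Without paeonol 10 replicate 1 the median against albiflorin at 10 µg/ml was 0.21. At 1 µg/ml the median deviation of the 36 probes was -0.38, -0.56 and 0.10 for paeonol replicates 1, 2 and 3. For paeoniflorin 1 it was -0.28, 0.71 and 0.26. These groups lay furthest apart on day 2, which holds the paeonol 1 array that was most like day 1.

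Albiflorin and paeoniflorin, which are isomers, did not differ at any of the 36 probes past the threshold at any dose. The median of albiflorin minus paeoniflorin was 0.35 at 1 µg/ml, 0.09 at 10 µg/ml and 0.17 at 100 µg/ml, with 8, 10 and 12 of the 36 below 0, against 52.9%, 51.6% and 55.7% of all tested probes. It became -0.18 at 10 µg/ml without albiflorin 10 replicate 2 and -0.01 at 100 µg/ml without albiflorin 100 replicate 2. For albiflorin 1 replicates 1, 2 and 3 the median deviation of the 36 probes was 0.77, 0.62 and 0.28. For paeoniflorin 1 it was -0.28, 0.71 and 0.26. By this measure these groups lay far apart on day 1 and close together on days 2 and 3. Day 1 holds the albiflorin 1 array that was most like day 2. None of the 36 and 0% of all tested probes were called by limma at any dose, and 0 of the 36 had an unadjusted p under 0.05, against 1.47%, 8.13% and 3.18%. The 95% interval of the difference stayed within 2-fold for 12, 14 and 15 of the 36 at the 3 doses, so a difference of 2-fold or more was within the interval for the rest. At 100 µg/ml 1 of 36 probes, 862567, had all albiflorin arrays below all paeoniflorin arrays, against 7.64% of all tested probes, and 1, 449065, had them above, against 4.08%. Probe 449065 had 3976, 9895 and 4623 with albiflorin 100, against 3936, 3884 and 3872 with paeoniflorin 100, a difference of 0.54 ± 0.338 (limma adjusted p = 1.00).

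Over all 10 LPS-treated groups together limma's moderated F called 0 of the 36 probes, against 0.0257% of all tested probes, and 9 of the 36 had an unadjusted p under 0.05, against 4.65%. The 5 largest F values were those of 926347 (4.62), 847876 (4.52), 553813 (4.50), 576673 (3.60) and 924098 (3.46), with limma adjusted p-values of 0.637 to 0.872. The 5 smallest were those of 921351 (mCG5445.2, 0.183), 461834 (0.332), 379837 (mCG146863, 0.508), 676320 (mCG17734.2, 0.646) and 823832 (mCG6581, 0.700). Probe 921351 kept much the same signal throughout, from 5420 to 11968 on the 30 arrays, and had 11184, 8648 and 5454 with paeonol 100, against 9183, 10438 and 7983 with LPS alone. Probe 676320 had 1 outlying array, paeoniflorin 10 replicate 1, with 35164 against at most 13427 on the others, and that is the array that stood apart.

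For 5 of the 36 the array held other probes with the same Gene_ID, 6 in all, none of them among the 36. For mCG4784.2, the other probe, 651349, had 13098, 12061 and 25526 with paeonol 100, against 37044, 185622 and 100613 with LPS alone, and 1306, 3144 and 2810 with vehicle. It was detected on all 3 vehicle arrays, which is why it is not among the 36, and it differed between paeonol 100 and LPS by -2.47 ± 0.586 (limma adjusted p = 0.125), beside -1.999 ± 0.640 for its partner 913648. For mCG12897.1, probe 495283 had 9291, 10489 and 21209 with paeonol 100, against 22236.5, 94442 and 53542 with LPS alone, and it was detected on 1 of 3 vehicle arrays. Its difference was -1.92 ± 0.663 (limma adjusted p = 0.397), beside -1.70 for its partner 791872. The mean of LPS alone minus vehicle was 5.29 for 651349 and 6.58 for 495283 on the log2 scale. These probes share arrays, RNA and Gene_ID with members chosen for that contrast, so both values are descriptions and not independent of the rule.

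**Figure D5:**
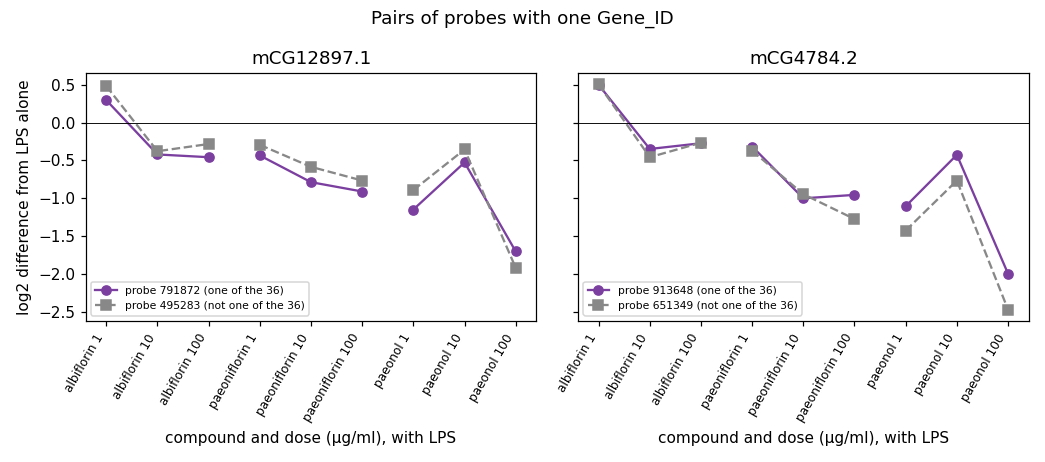
Log2 difference from LPS alone in each compound group (doses in µg/ml) for 2 pairs of probes with a shared Gene_ID. Circles are the probe that is one of the 36 and squares the other probe, with lines joining the doses of a compound. In both pairs the lowest point of each probe is paeonol 100, at -1.70 and -1.92 for mCG12897.1 and at -1.999 and -2.47 for mCG4784.2.

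For the other 3 Gene_IDs the 4 further probes were detected on few arrays or on none. For mCG17734.2 the other probe, 486476, was detected on 6 of the 30 LPS-treated arrays and lay 0.89 above vehicle with LPS alone on the log2 scale, while its partner 676320 was detected on all 30. For mCG120963.1 probes 572189 and 641351, and for mCG1309.2 probe 867007, were detected on no array, although their partners 545251 and 461834 were detected on all 30. Probes with one Gene_ID can lie in different parts of a gene, and where these lie is not given in the files.

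A single probe with an NM_ identifier met the same detection limits, that of Shbg, the gene of sex hormone-binding globulin. Its signal was 1660, 1095 and 2353 with paeonol 100, against 5254, 2995.5 and 6859 with LPS alone, and 345.0, 294.7 and 357.5 with vehicle. All 3 paeonol 100 arrays lay below all 3 LPS arrays, and the difference passed, at -1.55 ± 0.311 (limma adjusted p = 0.0322). Among the 3 LPS arrays, Shbg was lowest on scan day 2. Nlrp3, a sensor of the inflammasome whose probe was detected with vehicle, had 1812, 1909 and 2049 with paeonol 100, against 1838, 3868 and 3881 with LPS alone (-0.65 ± 0.458, limma adjusted p = 0.843). Ifi202b, an interferon-activated gene, had -0.47 ± 0.235 (limma adjusted p = 0.673).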

How the data were processed

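RNA of 33 cultures was read on 1 array each. Per the labels' protocols, digoxigenin-labelled cRNA was read by chemiluminescence on Applied Biosystems oligonucleotide arrays. Per the file headers the deposited tables give each spot's signal, a linear intensity that from the values was not normalized across arrays. They also give, per the file headers, its signal over noise, a score, and a flag whose codes are not explained. The authors' own log2 table, of unstated normalization, was used as an alternative. The scanner software is not given in the sources used here, and the headers give no array batch.

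Spots with a flag above 5000 were set missing and 303 control spots left out. Signals were quantile normalized, floored at the 5th percentile (165.7) and taken to log2, and 19438 probes with signal over noise of at least 3 on 3 or more arrays were tested. Limma 3.58.1 in R 4.3.3 fitted all 11 groups together (lmFit, eBayes), with Benjamini-Hochberg adjustment over all tested probes and a threshold of 0.05. Differences are log2 and errors SE with n = 3 arrays per group, so the number of arrays limits the precision. Where a probe was not detected in a group, each array of that group counted in the fold at the probe's signal or, if higher, at the lowest signal detected on it. For the 36 probes this gave the plain ratio of the geometric means, so their folds over vehicle are not bounds. The fit was tested on simulated data with independent noise on each array and no shared scan day shift. That test therefore does not cover such shifts. Other steps used Python 3.11.15 with pandas 2.3.3, numpy 2.4.6 and matplotlib 3.10.9.

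Same-numbered arrays share a scan day, which is where the pairing comes from. The median correlation of their deviations from the group means was 0.192, against -0.110 for different numbers, and every pair was above 0.1 in 5 of the 9 comparisons with LPS alone. Paeonol 100 is not among these 5 (lowest pair -0.0015), and it is the comparison with LPS alone in which the block changed the count of called members. The blocked value is printed where it changes a call.

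The members and all lists were chosen with earlier results of these data known. Probes are named if they are among the 10 largest LPS differences or 10 highest levels, pass a test, are among the 3 lowest or 3 highest at 100 µg/ml of a compound, have the smallest p at a lower dose or of a slope, are among the 5 largest or 5 smallest F values, lie at a threshold, or share a Gene_ID. Others that are named were chosen after their values were seen.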

Additional observations from a re-analysis of the deposited data

How the results depend on the processing

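Of 407 recomputed counts of called probes, 390 kept their value within 1.5 times and 17 moved. For paeonol 100 against LPS alone the count of 1 became 0 with median scaling, with the authors' log2 table, with no detection filter, with the control spot set as a block, with only the compared groups in the fit, and without replicate 1, 2 or 3 of every group. It became 4 with the replicate block and 0 to 3 when 1 array was left out, with 3 without LPS replicate 1 or paeonol 100 replicate 3. For paeonol 100 against albiflorin 100 the count of 0 became 1 with the replicate block and 0 to 1 when 1 array was left out, with 1 without paeonol 100 replicate 3. The block changed no other count. The rule itself gave 144 probes on the vehicle and LPS arrays alone, 25 with a signal over noise limit of 2, 44 with a limit of 5, and 36 to 50 when 1 array was left out, with 50 without vehicle replicate 1. Of 553 recomputed differences of named probes 14 changed sign, and none of these was called. With albiflorin 100 they were 449065, at -0.11 without replicate 2 of every group and -0.14 without albiflorin 100 replicate 2, and 580292, at -0.16 without LPS replicate 1 and -0.24 without albiflorin 100 replicate 2. With paeoniflorin 100 they were 912597, at -0.19 with the control spot set as a block, -0.34 without replicate 2 of every group, -0.12 without LPS replicate 2, and -0.07 and -0.09 without paeoniflorin 100 replicates 1 and 2, and 862567, at -0.13 without replicate 3 of every group and -0.017 without LPS replicate 3. The others were 545251 with paeoniflorin 1, at 0.013 without LPS replicate 3, and with paeonol 100 461834, at -0.072 without LPS replicate 2, and 862567, at -0.18 without replicate 3 of every group. Leaving out 1 array at a time, these differences ran from -0.14 to 0.52 for 449065 and -0.24 to 1.38 for 580292 with albiflorin 100, from -0.12 to 0.54 for 912597 and -0.017 to 0.42 for 862567 with paeoniflorin 100, from -1.30 to 0.013 for 545251 with paeoniflorin 1, and from -0.072 to 0.36 for 461834 with paeonol 100. The cause was not tested. Over its 17 alternatives the paeonol 100 difference of 553813 ran from -2.35 to -1.47 with a limma adjusted p of 0.00289 to 0.694. With 3 arrays a group and scan day shifts as large as many differences, small medians depend on single arrays.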

Other observations

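The 144 probes that were undetected with vehicle and detected on all 3 arrays of LPS alone, whatever happened with the compounds, show how often detection was lost. Of the 27 compound arrays, 36 of the 144 were detected on all, 34 on 20 to 24 and 35 on 10 to 19. At 1, 10 and 100 µg/ml, 68, 72 and 69 of the 144 were below detection on at least 1 paeonol array, 51, 76 and 59 on at least 1 albiflorin array, and 46, 81 and 50 on at least 1 paeoniflorin array. Paeonol had the most at 1 and 100 µg/ml and the fewest at 10 µg/ml. This order depends on single arrays with low detection. Paeoniflorin 10 replicate 1, the array that stood apart, missed 73 of the 144, and albiflorin 10 replicate 2 missed 63. These arrays detected 38.2% and 40.6% of all gene probes. No share of all gene probes is given beside the counts, so they are not read as a difference between compounds. At 100 µg/ml 15 of the 144 were below detection on all 3 paeonol arrays, 6 on all 3 albiflorin arrays and 7 on all 3 paeoniflorin arrays. At 10 µg/ml the counts on all 3 arrays were 17 with paeonol, 15 with albiflorin and 18 with paeoniflorin, and at 1 µg/ml 13, 8 and 11. The probes were chosen for detection on the LPS arrays, so some loss on any other arrays follows from the choice, and no test was made.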
